A study of Rattus norvegicus with 4 samples.

Results

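The genes examined here carry peptides from inside the cell to the cell surface on class I molecules of the major histocompatibility complex. They are the light chain B2m, the peptide transporter subunits Tap1 and Tap2, the loading chaperone Tapbp, the immunoproteasome subunits Psmb8, Psmb9 and Psmb10, and the heavy chains RT1-A2, RT1-Aw2 and RT1-S3. Every probe that the array's design names after 1 of these 10 genes was used, 10 of 35672 names in all, which gave 18 of the 41012 gene probes: 4 for B2m, 4 for RT1-Aw2, 2 each for RT1-A2 and RT1-S3, and 1 for each of the other genes. The values come from gracilis muscle of male Sprague-Dawley rats, an outbred stock, after 4 h of ischemia and 1, 3, 7 or 14 days of reperfusion. Each time point was 1 array with 2 colours, on which the RNA of the injured muscle carried Cy5 and that of a sham-operated muscle carried Cy3. The labels give 1 injured and 1 control sample for a time point, without saying whether a sample was 1 rat or a pool, or whether the 4 control labellings came from 1 sham muscle. The dyes were not swapped, and for any 1 probe a dye effect and a difference from sham cannot be told apart.

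A class I molecule is a polymorphic heavy chain held together with beta-2-microglobulin around a short peptide. Proteasomes cut the peptides, the Tap1 and Tap2 proteins pump them into the endoplasmic reticulum, and tapasin, the product of Tapbp, holds the empty class I molecule beside the pump until it is loaded. In cells exposed to interferons, Psmb8, Psmb9 and Psmb10 replace the constitutive catalytic subunits Psmb5, Psmb6 and Psmb7, and the assembled particle is the immunoproteasome. Resting skeletal muscle fibres are known for little class I at their surface, and its appearance there is a textbook feature of inflammatory muscle disease. In the rat the heavy chain genes form a large family, RT1, of closely related sequences on chromosome 20.

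Because the RT1 genes resemble each other, the letters on the array bear on what a heavy chain probe can bind. They were compared only with other probes of the array, so lower case does not show that a probe reads a single gene. The 5 probes below are shown because the results for the heavy chains turn on them, with capitals for a run of 20 or more bases that a probe of another gene name also contains:

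RT1-A2 A_44_P184753: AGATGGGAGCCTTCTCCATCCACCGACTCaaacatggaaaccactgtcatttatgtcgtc

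RT1-A2 A_44_P296155: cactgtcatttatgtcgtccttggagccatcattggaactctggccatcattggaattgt

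RT1-Aw2 A_44_P196401: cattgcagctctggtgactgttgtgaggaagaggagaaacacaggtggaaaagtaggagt

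RT1-Aw2 A_44_P324707: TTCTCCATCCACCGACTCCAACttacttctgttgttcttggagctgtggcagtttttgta

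RT1-S3 A_44_P128151: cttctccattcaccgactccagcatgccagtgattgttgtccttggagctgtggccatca

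The 29 capitals of the first and the 22 of the fourth both occur in 1 probe for RT1-CE2, another class I gene. The 2 probes for RT1-A2 share 19 bases. In the rn4 coordinates of the files they lie at chr20:5024064-5024217 and chr20:5024199-5024258. RT1-S3 was read at chr20:2817942-2818001 and chr20:2820059-2820117. The name RT1-Aw2 covers probes at separate places, chr20:2870185-2870244, chr20:3412477-3428860 and position 56524 to 56583 of the unplaced piece chr20_random, while probe A_44_P196401 has no position in the files. None of the RT1-Aw2 probes was matched to a single current gene symbol, so the name is only that of the array's design. The placement of A_44_P324707 spans 16384 bases. The other genes of chromosome 20 were read at 4770747 to 4770806 (Tap2), 4787980 to 4788039 (Psmb8), 4792827 to 4793962 (Tap1), 4806341 to 4806400 (Psmb9) and 5111712 to 5111882 (Tapbp). Psmb10 was read at chr19:35777711-35777770 and B2m on chromosome 3 between 108931019 and 108933854. Of the 4 B2m probes, A_43_P11442 and A_44_P214040 share 41 bases, so they are not separate readings of the transcript.

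Many class I pathway genes carry an interferon-stimulated response element, a site through which interferons act on genes. The letters GAAA followed, after any 2 bases, by GAAA again were searched on both strands and found in 7 of the 9 promoters matched by symbol in the RefSeq table of assembly GRCr8, which gives 250 bases before and 50 after each start. Of all 33469 promoters in that table, 3.92% held them. Of these windows, 4 are printed here because their genes stand for the light chain, a heavy chain and both transporter subunits, with the match in capitals on the strand of the gene:

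B2m, chr3:129549155-129549214, plus strand: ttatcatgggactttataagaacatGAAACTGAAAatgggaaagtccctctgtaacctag

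RT1-S3, chr20:2675391-2675450, plus strand: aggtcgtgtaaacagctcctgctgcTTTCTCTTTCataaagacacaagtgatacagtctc

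Tap1, chr20:4668630-4668689, minus strand: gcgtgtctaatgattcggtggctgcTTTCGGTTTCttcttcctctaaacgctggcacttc

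Tap2, chr20:4652303-4652362, minus strand: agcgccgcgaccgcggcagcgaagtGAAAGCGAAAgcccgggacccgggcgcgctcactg

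The Psmb8, Psmb10 and Tapbp promoters also held the letters, Psmb10 and Tapbp at 2 places each, which overlap in Tapbp. The Psmb9 and RT1-A2 windows did not. Tap1 and Psmb9 are transcribed away from each other from starts 457 bases apart, and their windows share 44 bases. Of other motifs searched on both strands, CCAAT was found in 5 of 9 (37.5% of all promoters), the kappaB motif in 4 (7.51%), TGACG in 3 (21.2%) and TTCNNNGAA in 1 (8.87%), and none of these matches overlapped the response element. A match describes letters in a window and does not show that a factor binds there.

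The signal of all 18 probes was well above background in both channels on all 4 days. Over the whole array this held for 64.4% to 68.7% of the probes in the injured channel and 34.7% to 47.3% in the sham channel. On 40 probes printed 10 times, the ratio varied between spots of an array with a typical SD of 0.04 to 0.07 on the log2 scale, which is technical error within an array only. Markers of muscle fibres were bright in the sham channel, with a summed level between 17.2 and 18.5 (log2). In the injured channel that sum was 15.2, 14.3, 17.3 and 18.0 on days 1, 3, 7 and 14. The 4 sham channels correlated at 0.962 to 0.993 over 14042 probes.

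Class I presentation genes were near sham on days 1 and 3 and mostly above it on days 7 and 14, although how near sham they were on the early days depended on how the array was centred. The median log2 ratio of the 18 probes, injured over sham, was 0.09 on day 1, -0.05 on day 3, 1.36 on day 7 and 1.51 on day 14, while the median of all probes measured lay between 0.02 and 0.04 on every day. On day 7, 15 of the 18 probes were at least 2-fold higher than sham and 0 lower, where 3.12% of all probes were higher and 1.25% lower. On day 14 it was 11 higher and 1 lower, against 2.99% and 1.58% of all probes. On day 1 there was 1 higher and 1 lower, against 1.17% and 4.78%, and on day 3 there was none either way, against 2.32% and 3.89%. All 18 ratios were above 0 on day 7, as were 55.1% of all probes. With arrays centred on their median in place of loess, the 18 probes had medians of 1.34, 0.86, 2.22 and 2.28, and 15, 5, 18 and 16 of them were at least 2-fold higher on days 1, 3, 7 and 14, beside 21.3%, 16.4%, 11.2% and 11.5% of all probes. That centring raised the median of all probes by 0.21 to 0.34, and the later days were above the earlier ones under it too. These counts describe 1 array a day and carry no test. In bulk muscle, more cells of a type that makes class I molecules and more RNA per cell cannot be told apart.

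**Figure D1:**
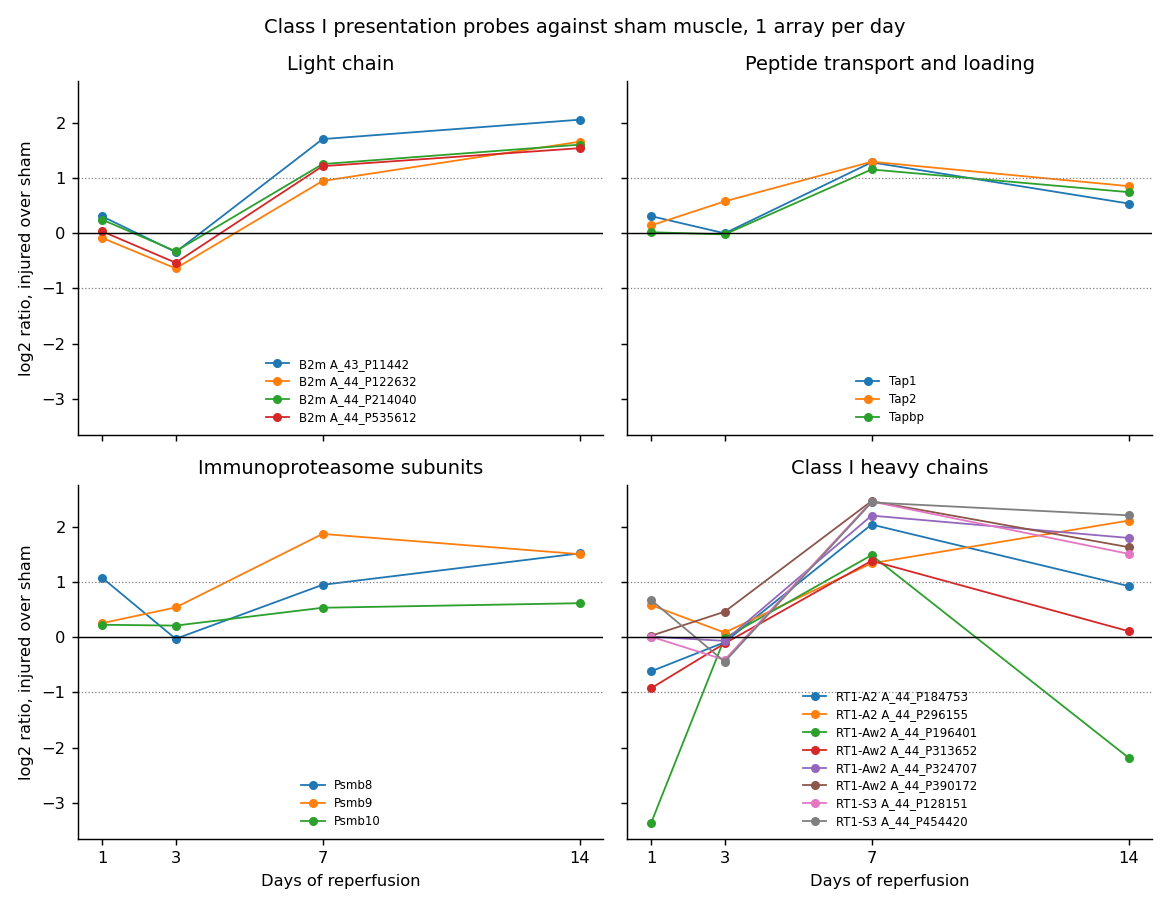
Log2 ratio of injured over sham muscle against days of reperfusion for each of the 18 probes, in 4 panels by role, with 1 array per day and no error bars; dotted lines mark 2-fold. The light chain probes without a saturated spot reach 1.65 and 2.05 on day 14 (the other 2, saturated that day, are lower bounds), all heavy chain probes pass 2-fold on day 7, and 1 RT1-Aw2 probe lies at -3.36 on day 1 and -2.18 on day 14.

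The light chain was above sham on the later days by every probe. The B2m probe A_43_P11442 had log2 ratios of 0.30, -0.34, 1.70 and 2.05 on days 1, 3, 7 and 14. Probe A_44_P122632, at another place in the gene, had -0.09, -0.64, 0.94 and 1.65. All 4 probes were below 0 on day 3, between -0.64 and -0.33, but above 0 under median centring, and all were at least 2-fold higher on day 14. Probe A_44_P214040 was saturated in the injured channel on days 1, 7 and 14, so its folds there are bounds: at least 1.18-fold, 2.38-fold and 3.04-fold higher. A_44_P535612 was saturated on day 14 and was at least 2.90-fold higher there. Both bounds use the saturated spot at its measured value and hold only against the sham channel of the same array. The sham channel of A_43_P11442 itself varied, at 13.8, 14.0, 12.8 and 12.9 (log2 brightness), and only 4.42% of 13986 probes had a sham range as wide as its 1.21. With the 4 sham channels averaged as the reference, this probe stood at 1.11 on day 7 and 1.60 on day 14. By that reference A_44_P122632 stood at 0.97 and 1.32 on these days, and A_44_P535612 at 1.02 and 1.24. A_44_P214040 stood at 1.08 and 1.18, against 1.25 and 1.60 with the sham of the same array. On day 1 it was higher by the averaged reference, at 0.57 against 0.24.

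By their median, the heavy chains were the group farthest from sham on day 7. All 8 probes were at least 2-fold higher on that day, with a median log2 ratio of 2.12. RT1-S3, a class I gene that lies apart from RT1-A2 on chromosome 20, had ratios of 0.01, -0.41, 2.45 and 1.51 by probe A_44_P128151 and of 0.67, -0.44, 2.44 and 2.21 by A_44_P454420. The probes were 5.48-fold and 5.42-fold higher on day 7, and neither passed 2-fold before it after loess. Under median centring both did on day 1, at 1.26 and 1.77. RT1-Aw2 reached 2.46 on day 7 by probe A_44_P390172, after 0.03 and 0.46 on days 1 and 3 and before 1.63 on day 14. Its probe A_44_P324707 had 0.01, -0.07, 2.20 and 1.80. After loess both of these probes were level with sham on day 1 and well above it from day 7. Under median centring A_44_P390172 stood at 1.34 and A_44_P324707 at 1.12 on day 1.

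Probes with the same heavy chain name did not always move together. RT1-A2, a classical class I heavy chain, had ratios of -0.62, -0.09, 2.04 and 0.93 by A_44_P184753. Its neighbour A_44_P296155 had 0.58, 0.08, 1.34 and 2.11. So the first peaked on day 7 and the second was highest on day 14, although they lie side by side. The sham level of each varied by 0.07 and 0.16 across arrays, without correction for position on the array. The brightness surface fitted by the scanner software, described below, was uneven at the first probe. In the sham channel it was 0.89, 0.65, 0.44 and 1.00 on days 1, 3, 7 and 14. RT1-Aw2 differed more. Probe A_44_P196401 had ratios of -3.36, -0.02, 1.48 and -2.18, that is 10.2-fold lower than sham on day 1, level on day 3, 2.80-fold higher on day 7 and 4.53-fold lower on day 14. A_44_P313652 had -0.92, -0.11, 1.38 and 0.11. Its dim day 1 value moved with the background correction, to -1.97 as deposited, -2.04 without normexp and -1.56 with offset 0, each past 2-fold lower, as was -1.13 with the averaged sham channels.

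The swings of A_44_P196401 were in the injured channel. Its brightness there was 7.26, 10.79, 12.53 and 8.47 (log2) on days 1, 3, 7 and 14, against 10.61, 10.80, 11.04 and 10.65 in the sham channel. An injured range as wide as its 5.27 was found for 50 of 13986 probes (0.358%) measured in both channels on all arrays. Across the 8 heavy chain probes the sham range, uncorrected for position, was 0.07 to 0.62, narrower than the injured range for each of them.

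**Figure D2:**
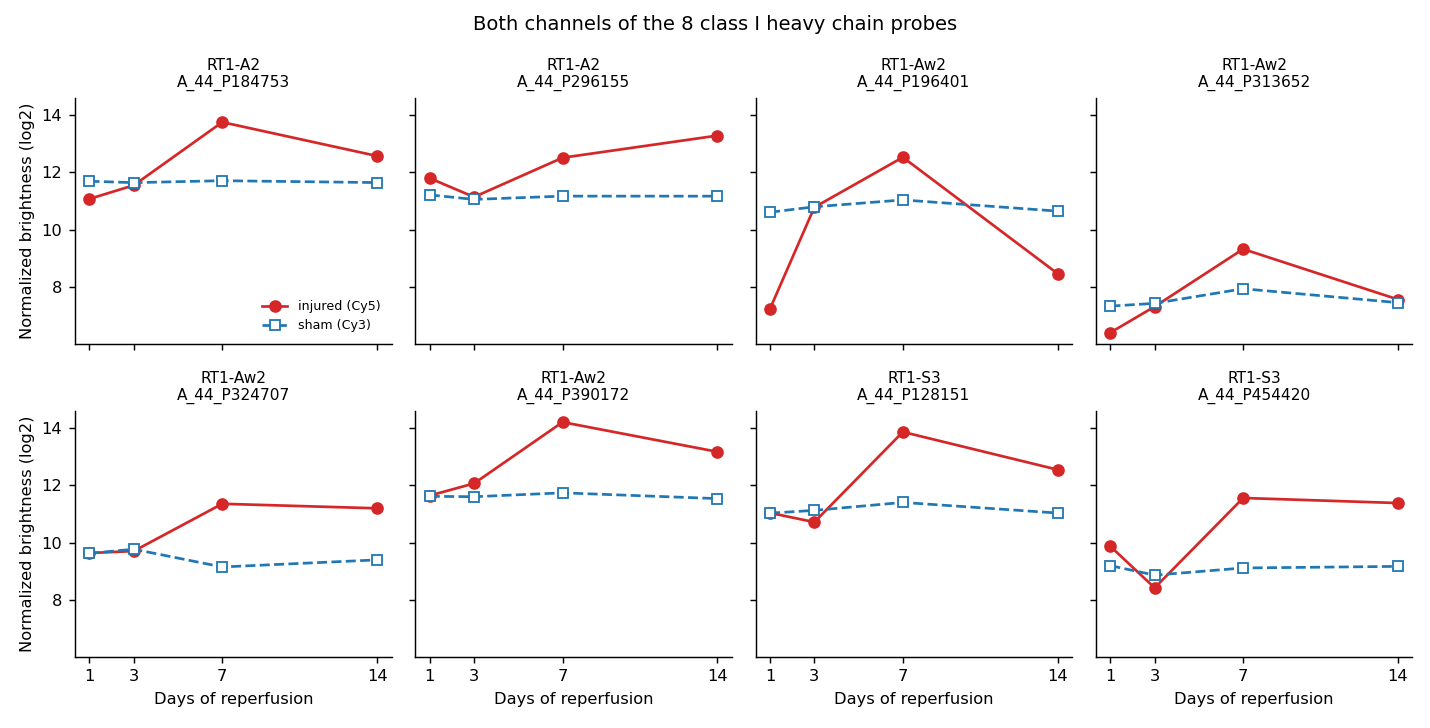
Normalized brightness (log2) of the 8 heavy chain probes in the injured (filled circles) and sham (open squares) channels against days of reperfusion, 1 array per day. Sham levels stay within 0.62 for every probe, while the injured level of RT1-Aw2 A_44_P196401 goes from 7.26 on day 1 to 12.53 on day 7 and 8.47 on day 14.

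After loess, peptide transport and loading genes were above 2-fold on day 7 only, while under median centring all 3 passed 2-fold on days 1, 7 and 14 and Tap2 on day 3 too. Tap1 had log2 ratios of 0.31, -0.00, 1.28 and 0.54 on days 1, 3, 7 and 14. Tap2, its partner in the pump, had 0.14, 0.58, 1.29 and 0.85. Tapbp had 0.02, -0.02, 1.15 and 0.74. On day 7 all 3 lay between 2.22-fold and 2.45-fold higher, and on day 14 their log2 ratios lay between 0.54 and 0.85, against 1.14 to 1.50 under median centring.

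Of the immunoproteasome subunits 1 of 3 was at least 2-fold higher on day 7 and 2 of 3 on day 14. Psmb9, the subunit encoded beside Tap1, had log2 ratios of 0.25, 0.54, 1.87 and 1.50. Psmb8 had 1.07, -0.03, 0.95 and 1.52, and was the only one of the 18 probes at least 2-fold higher on day 1 after loess. With the averaged sham channels as the reference it was at 0.98 there and none of the 18 passed, while under median centring 15 did. Psmb10, on chromosome 19 and away from the RT1 region, had 0.23, 0.21, 0.53 and 0.62 and passed 2-fold on no day after loess, but on every day under median centring (1.60, 1.21, 1.33 and 1.41). Its sham level varied by 0.99 across arrays, between 11.19 and 12.18, and only 6.41% of probes varied as much. With the averaged sham channels as the reference Psmb10 had 0.76, -0.25, 0.15 and 0.92.

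The constitutive catalytic subunits, which the inducible ones replace, passed 2-fold on no day after loess. Psmb5 had log2 ratios of -0.62, -0.50, -0.28 and -0.15, Psmb6 of -0.24, -0.52, -0.30 and -0.18, and Psmb7 of -0.78, -0.94, -0.51 and -0.24. The median of the 3 was below 0 on every day, and it was above 0 on every day when arrays were centred on their median instead of loess, at 0.76, 0.49, 0.50 and 0.59. Of 12 probes for the other 20S core subunits, after loess 0 were higher on any day and 2 were lower on day 3, Psma2 at -1.33 and Psmb1 at -1.15. The median of the 12 was below 0 on every day after loess. Under median centring it was above 0 on every day, at 1.09, 0.54, 0.28 and 0.51. Psma5, an outer ring subunit, was at -0.79 to -0.78 on 3 of the days and -0.82 on day 3. The activator caps that interferon gamma also induces, Psme1 and Psme2, stood at 0.33 and 0.31 on day 7 and at 0.64 and 0.31 on day 14. Psme3, a nuclear activator of another kind, was at -1.20 on day 14.

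**Figure D3:**
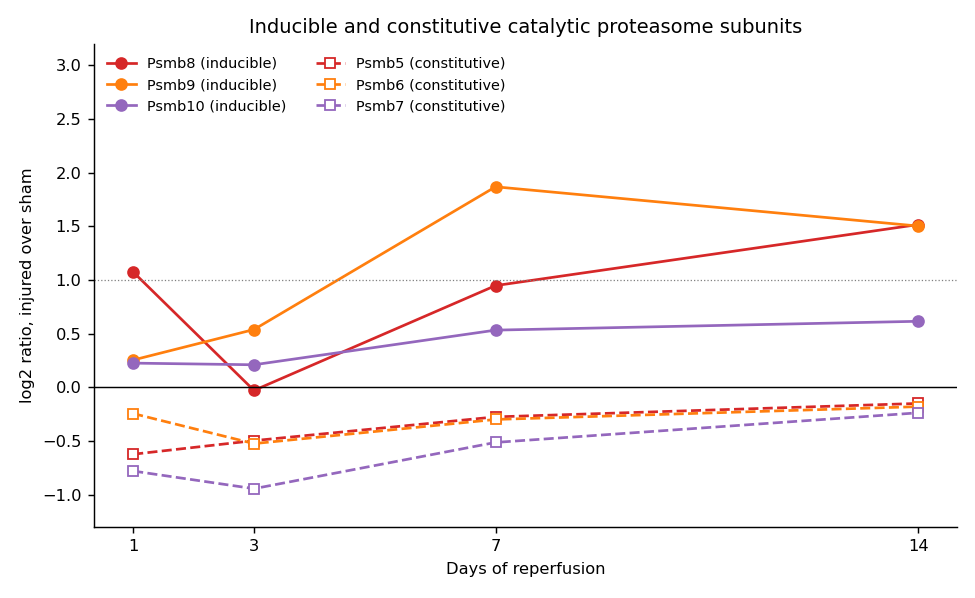
Log2 ratio of injured over sham muscle against days of reperfusion for the inducible subunits Psmb8, Psmb9 and Psmb10 (filled circles) and the constitutive subunits Psmb5, Psmb6 and Psmb7 (open squares), 1 probe and 1 array per day each; the dotted line marks 2-fold. Psmb8 and Psmb9 reach 1.52 and 1.50 on day 14, and the constitutive subunits lie below 0 after loess, though their median is above 0 under median centring.

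The day 7 value of Psmb8 depended on which ratio was read. The scanner software's deposited ratio put it at -0.98, against 0.95 here. For each channel the software fits a smooth surface of brightness over the array. On days 1, 3 and 14 both channels were divided by their surface, as the slope of the applied correction on the surface was 0.97 to 1.01. On day 7 the sham channel was divided by it (slope 0.99) and the injured channel was not (slope -0.02). At the Psmb8 spot the 2 surfaces were 0.26 and 0.30. With the correction of the sham channel undone, the deposited ratio of Psmb8 became 0.95. The normexp and loess ratios were not divided by a surface either, so closeness to them is no separate check. The same step moved RT1-A2 A_44_P184753 from 0.87 to 2.05, RT1-S3 A_44_P454420 from 1.15 to 2.61 and B2m A_44_P122632 from 0.26 to 0.95.

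**Figure D4:**
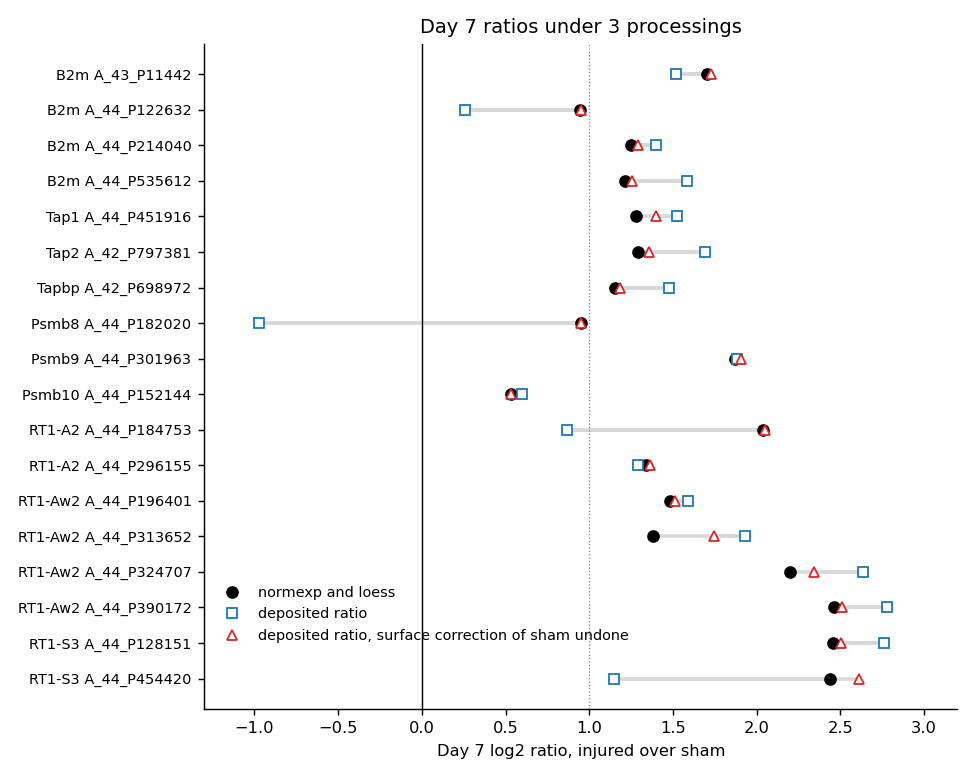
Day 7 log2 ratio of injured over sham muscle for the 18 probes after normexp and loess (black circles), as deposited (blue squares), and as deposited with the surface correction of the sham channel undone (red triangles); the dotted line marks 2-fold. Psmb8 moves from -0.98 as deposited to 0.95 with the correction undone, the value it has after normexp and loess, which also use no surface.

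The 2 fits across all probes used the 4 arrays together, with the days as the only spread. The first tested the mean of the 4 days against sham with limma. None of the 18 probes passed an adjusted p of 0.05, where 0.0211% of all 23648 probes were called higher and 0.182% lower. The lowest adjusted p among them, by limma, was 0.152, for Psmb10. At an unadjusted p under 0.05 there were 5 of 18, against 21.8% of all probes. Under median centring 16 of the 18 were called higher by limma, together with 9107 of all 23648 probes. The means after loess ran from -1.02 for RT1-Aw2 A_44_P196401 to 1.22 for RT1-S3 A_44_P454420.

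The second fit set days 7 and 14 against days 1 and 3. Here 1 of the 18 probes was called, RT1-Aw2 A_44_P324707, which was 2.03 higher on the later days (SE 0.19, limma adjusted p = 0.0323 over all 23648 probes), from a mean of -0.03 to one of 2.00. Of all probes 1.72% were called higher and 0.233% lower. The call was lost without any 1 of the 4 arrays, with differences of 1.82 to 2.23 and limma adjusted p of 0.0585 to 0.147. Days 1, 3 and 7 were scanned in 1 session and day 14 in another, and within the first session the difference was 2.23 (limma adjusted p = 0.147). The call was also lost under median centring, with the deposited ratio, without normexp and with the sham channels averaged. All 18 differences were positive, with a median of 1.43 against 0.03 over all probes, and 14 of the 18 had an unadjusted p under 0.05. A positive difference at that level was found for 11.7% of all probes. For 16 of the 18 probes both later ratios were above both earlier ones, as for 30.2% of all probes. The exceptions were Psmb8, which was higher on day 1 than on day 7, and RT1-Aw2 A_44_P196401. The days are stages of a time course and not replicates, and the split was made with earlier results of these data known.

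**Figure D5:**
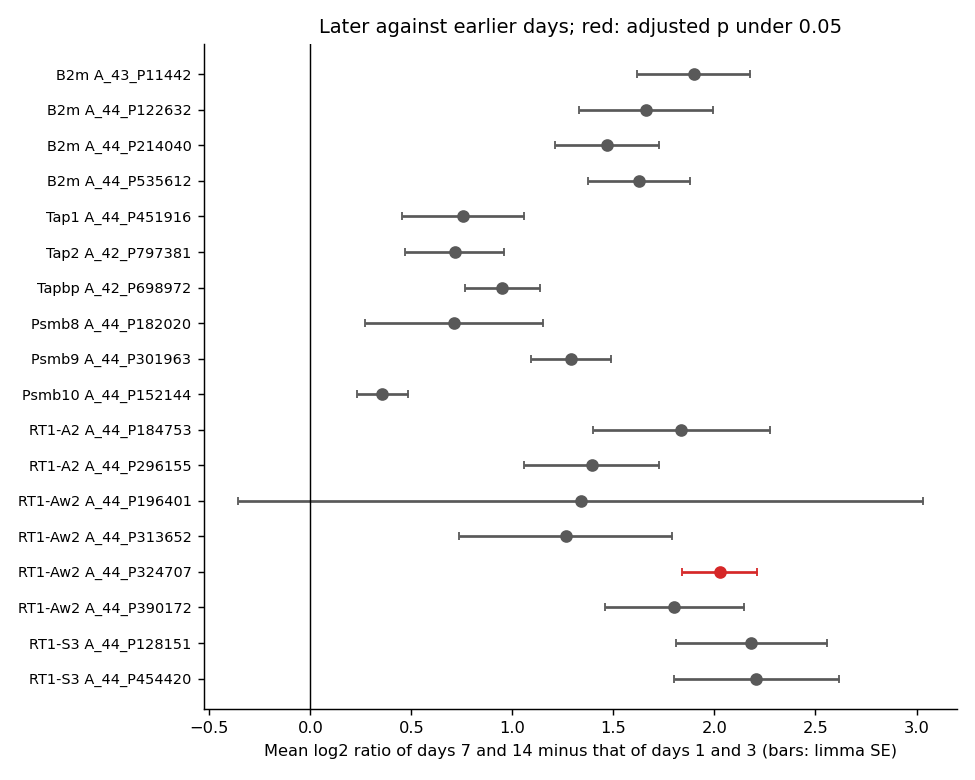
Difference between the mean log2 ratio of days 7 and 14 and that of days 1 and 3 for each of the 18 probes, with the limma SE as bars, over 4 arrays. All 18 differences lie above 0, RT1-Aw2 A_44_P324707 (red, 2.03) is the 1 call, and A_44_P196401 has the widest bar, with an SE of 1.69.

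The RT1-S3 probes had the largest differences, 2.18 (SE 0.37) and 2.21 (SE 0.41), with limma adjusted p of 0.0837 and 0.0933. Among the B2m probes with no saturated spot, A_43_P11442 differed by 1.90 and A_44_P122632 by 1.66, with limma adjusted p of 0.0655 and 0.103. Psmb9 differed by 1.29 (SE 0.20), with a limma adjusted p of 0.0726. Tapbp differed by 0.95, Tap1 by 0.76, Tap2 by 0.71, Psmb8 by 0.71 and Psmb10 by 0.36.

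The median profile of the 18 probes was set beside 13442 other probes with a gene name. The nearest was RT1-CE12, another class I gene, with ratios of 0.16, -0.07, 1.29 and 1.63 and a root mean square difference of 0.08 over the 4 days. It was followed by Xcl1, a chemokine of activated T and NK cells (0.13), the amino acid transporter Slc7a3 (0.14), the complement C1 inhibitor Serping1 (0.19) and Ly6e, a surface protein induced by interferons (0.19). Among the members themselves RT1-Aw2 A_44_P196401 was farthest from the median profile, at 2.52.

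The other RT1 names of the class I type gave 26 probes, of which 22 or 23 were measured on a day. Of these, 15 were at least 2-fold higher on day 7 and 12 on day 14, with medians of 1.24 and 1.07, and 0 were lower on either day. After loess none was higher on days 1 and 3, where median centring gave medians of 1.20 and 0.82, and 2 were lower on day 1. The 2 were RT1-CE3, at -1.58, -0.04, 2.44 and -0.27 over the 4 days, and RT1-CE16, at -1.08, -0.07, 2.49 and 0.25. Both were lower than sham on day 1, high on day 7 and close to sham on day 14, the days on which RT1-Aw2 A_44_P196401 was low, high and low. The stock is outbred, with 1 injured sample a day. For heavy chain probes, allele differences between samples and changes between days therefore cannot be told apart. RT1-CE2, whose probe holds the shared runs printed above, had -0.58, -0.11, 1.98 and 1.05. RT1-CE1 was 1.67 higher on the later days, with a limma adjusted p of 0.0371, the only call among the 22 tested. Without day 7 or without day 14 no probe of the array was called in this fit, RT1-CE1 included. RT1-Ke4 falls under the name rule, although its current symbol is Slc39a7, a zinc transporter, and lay at -0.67 on day 14.

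A list of peptide loading and trimming genes, together with other genes of the endoplasmic reticulum such as Hspa5 and Sec61b, had 10 probes. After loess 0 of the 10 probes were at least 2-fold higher on days 7 and 14. Their median on these days was 0.17 and -0.37, against 0.82 and 0.0075 under median centring. Erap1, the aminopeptidase that trims peptides in the endoplasmic reticulum, had ratios of 0.22, 0.19, 0.87 and 0.62. The chaperones Calr and Hspa5 were lower on day 14, at -1.14 and -1.37. Ganab, a glucosidase of the same compartment, was at 1.06 on day 3. Class I-like genes such as Fcgrt and Cd1d1 gave 0 probes past 2-fold on days 3, 7 and 14 after loess, and Fcgrt was at -1.24 on day 1.

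Among regulators of the pathway, no probe was matched to the name Nlrc5. Irf7, a transcription factor of the interferon response, was at least 2-fold higher on days 7 and 14. Irf7 had 0.87, -0.48, 3.11 and 2.60. Irf1, which acts directly on class I promoters, had 0.15, 0.01, 0.58 and 0.25. Ifng itself was not well above background in either channel on days 1 and 3, nor in the sham channel on days 7 and 14. In the injured channel it was well above background on days 7 and 14, with log2 ratios of 0.16 and 0.42.

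Of 13 probes for genes of CD8 T and NK cells, which read class I molecules, 6 were at least 2-fold higher on day 7 and 6 on day 14, and 1 was lower on each. The sham channel of the receptor chain Klrd1 and of the granule proteases Gzmk and Gzma was not well above background, so their folds are bounds. Klrd1 was at least 3.09-fold higher on day 7 and at least 5.99-fold on day 14, Gzmk at least 2.50-fold and 4.79-fold, and Gzma at least 3.53-fold and 3.56-fold. The chains of the CD8 receptor were not among the higher probes. Cd8a was at -1.57 and -1.88 on these days, and Cd8b at 0.04 and -0.49.

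Markers of most other cell types passed 2-fold on some days, but not all on the same days. T cell markers were led by Cd3g, at 2.89 on day 7 and 3.44 on day 14. Their summed injured level was 12.08, 10.97, 12.58 and 12.66 (log2) on days 1, 3, 7 and 14, against 11.60 to 11.83 in sham. Of the T cell probes, 2 of 7 were higher on day 7 and 2 of 8 on day 14, and 1 was lower on both days. Fibroblast markers were higher by 8 of 9 probes on day 3 and by 7 of 9 on days 7 and 14. Their summed injured level ran from 14.1 to 17.1, against 14.7 to 15.8 in sham. Monocyte and macrophage markers were split, with 4 of 14 higher and 4 lower on day 7 and 1 of 14 higher and 6 lower on day 14. Their summed injured level was 16.35, 15.61, 16.03 and 15.37 on days 1, 3, 7 and 14, against 15.4 to 15.6 in sham. Muscle fibre markers were lower by 10 of 13 probes on day 1 and 10 of 12 on day 3, and on day 14 were higher by 5 of 13. Endothelial markers were higher by 1 of 11 probes on each of days 7 and 14 and lower by none, with a summed injured level of 12.7 to 13.8 against 11.9 to 12.3 in sham. Neutrophil markers were higher by 4 of 6 probes on day 1, all for S100a8 or S100a9, while Camp stood at 0.99 and Mpo at -0.13. They were lower by 2 on days 7 and 14, with a summed injured level of 8.75 to 13.41 against 10.7 to 11.2. Of 4 B cell probes 1 to 3 were measured on a day, with 0 past 2-fold on any day and a summed injured level of 8.70 to 9.35 against 8.92 to 9.21. The counts of marker probes given here are after loess. The part of any of these cells in the class I ratios was not tested.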

How the data were processed

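Deposited intensities are the mean spot brightness and median local background of each channel, not normalized. Feature Extraction is given as version 10.5.1.1 per the file headers and as 9.5.3 per the submitters' processing notes. The deposited log10 LogRatio is red (Cy5) over green (Cy3) after the software's spatial and dye correction, and the deposited value table holds log2 ratios equal to it. Deposited flags (well above background, saturated) and surfaces were used as given.

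Ratios were computed with R 4.3.3 and limma 3.58.1 (normexp, offset 50, loess within arrays, outlier and control spots without weight, spots of 1 probe averaged). Single-channel levels were quantile normalized on mean brightness. A probe was measured on a day if well above background in 1 channel, and tested if so on every array. Both limma fits were adjusted by Benjamini-Hochberg over 23648 probes and tested on simulated arrays of 41372 spots. Of 100 spots changed by 1.5 (log2), the test of the mean recovered 100% and that of later against earlier days 80%. Only bright spots were changed there, by the same amount on each affected array, with independent noise. Real days differ from each other, so these shares do not give the power for the members. With 1 array per day no day has a test, and the number of arrays limits the precision. Days 1, 3 and 7 were scanned in 1 session and day 14 in another. Names are those of the array's design. Named probes are all those of the 10 names; other genes come from pathway lists, by up to 4 examples, the 5 nearest profiles, and a few singled out after their values were seen, such as Psma5, RT1-CE2 and Cd3g. Members, lists and the split of days were chosen with earlier results of these data known. Motif searches and summaries used Python 3.11.15 with pandas 2.3.3. Alternatives were median centring, the deposited ratio, other background corrections and filters, the mean of the sham channels, the brightest probe per name and leaving out each array. A gene of the list of regulators is not reported here, and neither are that list's counts.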

Additional observations from a re-analysis of the deposited data

Results flagged for a closer look

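RT1-Aw2 by probe A_44_P324707 stood out because its ratio to sham differed between the later and the earlier days by a test of that difference. It was 2.03 higher (log2) on days 7 and 14 than on days 1 and 3 (SE 0.19, limma adjusted p = 0.0323), with ratios of 0.01 and -0.07 on the earlier days and 2.20 and 1.80 on the later ones. Over the alternatives the limma adjusted p was 0.0245 to 0.147. Its sham level was lower on days 7 and 14, at 9.16 and 9.41, than on days 1 and 3, at 9.64 and 9.78, and with the averaged sham channels as the reference the difference was 1.60.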

How the results depend on the processing

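Median centring in place of loess raised the median of all probes by 0.34, 0.25, 0.22 and 0.21 on days 1, 3, 7 and 14 and that of the 18 probes to 1.34, 0.86, 2.22 and 2.28. The counts at least 2-fold higher became 15, 5, 18 and 16 of 18, beside 21.3%, 16.4%, 11.2% and 11.5% of all probes, and the mean over days was then called for 16 of 18, with 9107 of 23648 probes called higher. With the sham channels averaged, 0 were higher on day 1. The count lower on day 1 was 2 with the deposited ratio, with or without the day 7 surface, with subtracted signals without normexp, with offset 0 and against the mean sham channel. The brightest probe per name gave 0 lower on days 1 and 14, and 8 and 5 of 10 names higher on days 7 and 14. The 1 call between later and earlier days became 0 under median centring, the deposited ratio with or without the day 7 surface, subtracted signals without normexp and the mean sham channel, and 0 to 0 without each array in turn. The sign turned for RT1-Aw2 A_44_P313652 in the mean over days (-0.035 with the deposited ratio, -0.082 with the day 7 surface undone, -0.0907 without normexp, and -0.31 without day 7 in a range of -0.31 to 0.46 over the arrays left out), and in the later minus earlier difference for Psmb8 (-0.17, deposited ratio), Psmb10 (-0.036, median centring) and RT1-Aw2 A_44_P196401 (-0.33 without day 1, -0.49 without day 7, 3.17 without day 14). For Psmb8 the sign was positive again with the day 7 surface undone. The cause of these turns was not tested. Undoing the surface was added after seeing the data. No paired analysis was possible because each day has 1 array and the groups share only the replicate number 1.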
